A study of Mus musculus with 8 samples.

Results

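Potassium channel genes were followed in primary spheres grown from mouse sympathetic ganglion cells with and without retinoic acid (RA). The members were the genes whose mouse symbol begins with Kcn. Of 20660 gene symbols matched to array probes, 97 were Kcn genes, and 49 of them (50.5%) were tested, since 4 or more of the 8 arrays showed their probe well above background, among 13539 tested genes in all. The other 48 comprised 35 genes that were not well above background on any array, 6 on 1 array, 4 on 2 arrays and 3 on 3 arrays.

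The cultures of interest were grown in RA-free medium (4 arrays) and were set against RA-containing medium (4 arrays), and all spheres were collected after 8 days. The ganglion was the superior mesenteric one of TH-MYCN hemizygous mice aged 3 weeks on the 129+Ter/SvJcl background, so both media carry the transgene, in which the tyrosine hydroxylase promoter drives human MYCN. Cells of each ganglion were divided between the media, which pairs the 4 RA-free with the 4 RA-containing arrays by animal. Primary spheres are mixtures of the cells that a dissociated ganglion yields, and in such bulk samples fewer cells of a type and less RNA per cell cannot be told apart.

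Potassium channels let potassium ions leave or enter the cell and so set the resting potential and the shape and rate of action potentials. Pore-forming subunits fall into voltage-gated (Kv), calcium- or sodium-activated, inwardly rectifying and tandem-pore (K2P) leak families, and many assemble with auxiliary subunits that change their gating or surface level. In sympathetic neurons the Kv7 channels carry the M-current, which muscarinic receptors suppress, and Kv4 channels carry a fast transient A-type current.

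All 8 arrays lay on 1 slide. The share of spots well above background was 48.5% to 55.0% on RA-free arrays and 52.7% to 55.3% on RA-containing arrays, and the number of arrays limits the precision. Levels are on the log2 scale, with the 75th percentile of each array subtracted, so a level of 0 equals that percentile, and levels of different probes are not compared. The sympathetic identity of the cultures was checked on 12 markers, all of which were well above background on every array. Called higher were 3 (25%, against 36.1% of all tested genes) and called lower 5 (41.7%, against 28.2%). Under spike-in scaling 2 were called lower (1931 of all 13539 genes), and by limma-trend 5 were called higher (5041 of all 13539 genes). Th, which catalyses the first step towards catecholamines, stood at 7.83 ± 0.10 in RA-free and 4.24 ± 0.31 in RA-containing cultures (SD, n = 4 each). Dbh, which makes noradrenaline, stood at 6.09 ± 0.27 in RA-free and 7.62 ± 0.09 in RA-containing cultures. Prph, an intermediate filament of peripheral neurons, had the largest change of these markers, at 2.28 ± 1.00 in RA-free and 7.48 ± 0.11 in RA-containing cultures (change −5.20, SE 0.37, adjusted p = 0.000180). The first principal component took 81.7% of the variance and set the media apart. On it, animal 1 scored 42.3 without RA and animals 2 to 4 scored 59.5 to 66.2, against −61.3 to −52.3 with RA. Markers of other cell types were near or below detection in part, and their role in the results was not tested. Of 7 immune markers, 4 were tested. Called lower were 3 (75%, against 28.2% of all tested genes) and called higher none (all genes 36.1%). Itgam was lower (change −0.51), Csf1r was not called, and Aif1 and Adgre1 passed the filter through RA-containing arrays alone and so had to be lower. The list had a summed signal in multiples of the 75th percentile of 13.8 to 16.1 on RA-free and 18.2 to 23.0 on RA-containing arrays, while Ptprc and Cd14 were at background on every array. The brightest tested probe, that of Itgam, weighs most in this sum (mean levels 3.72 in RA-free and 4.23 in RA-containing cultures). Of 8 fibroblast markers, 6 were tested, 2 were higher (33.3%, against 36.1%) and 3 lower (50%, against 28.2%). Their sums were 9.13 to 11.2 on RA-free and 7.73 to 9.13 on RA-containing arrays, with Pdgfra and Lum at background. Of the 3 lower, 1 passed the filter through RA-containing arrays alone and so had to be lower. Of 8 smooth muscle and pericyte markers 1 of 4 tested was higher (25%, against 36.1%) and none lower (all genes 28.2%). Their sums were 1.29 to 1.47 on RA-free and 1.1 to 1.78 on RA-containing arrays, with Myh11 and Des at background. Of 7 endothelial markers, 2 were tested, of which 1 was lower (50%, against 28.2%) and none higher (all genes 36.1%). That call was absent under 9 alternatives, among them the filter on all 8 arrays, which its probe did not pass. The list summed to 8.08 to 9.46 on RA-free and 8.12 to 10.3 on RA-containing arrays, with Cdh5, Tek and Emcn at background. Its brightest tested probe weighs most in this sum (mean levels 3.09 in RA-free and 3.11 in RA-containing cultures). Of 6 adrenal markers 1 of 3 tested was higher (33.3%, against 36.1%) and none lower (all genes 28.2%). The call was lost under normexp with quantile normalization. The adrenal sums were 0.559 to 0.823 on RA-free and 0.499 to 0.598 on RA-containing arrays, with Cyp11a1, Cyp11b1 and Hsd3b1 at background.

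The comparison of the media asks how the spheres differ when RA is left out. Most potassium channel genes that changed were lower without RA. By limma with adjustment over all 13539 genes, 24 of the 49 Kcn genes were called lower (49%, against 28.2% of all tested genes) and 9 were called higher (18.4%, against 36.1%). In either direction 67.3% of the members were called, close to the 64.3% of all tested genes. Among members well above background on all arrays, the largest decreases were those of Kcnj10, Kcnt1, Kcnb2 and Kcnj12, and the largest increases those of Kcnmb2, Kcnd3 and Kcnk3.

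The median change was −0.26 over the 49 members and 0.07 over all tested genes. The values of the media did not overlap in 30 members (61.2%, against 53.3%). These shares describe the members that passed the filter: 4 of them, Kcnn3, Kcnip4, Kcnk2 and Kcnj11, passed through RA-containing arrays alone and so had to be lower without RA. Among the 38 members whose probe was well above background on all 8 arrays, 17 were lower (44.7%) and 8 higher (21.1%), against 26.1% and 38.6% of the 12155 genes of that kind, with median changes of −0.16 and 0.10. Of the same 38, 10 had a called decrease of 1 or more in log2 terms (26.3%, against 7.74% of genes of that kind) and 3 a called increase of that size (7.89%, against 7.34%). Within single animals, 29, 34, 33 and 30 of the 49 members were lower without RA in animals 1 to 4, the 4 members named above included. The median differences in animals 1 to 4 were −0.24, −0.30, −0.50 and −0.37 over the members. Over all tested genes they were 0.07, 0.09, 0.05 and 0.08. Animal 1's RA-free array stood highest of the RA-free arrays in 15 of the 24 members called lower.

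**Figure D1:**
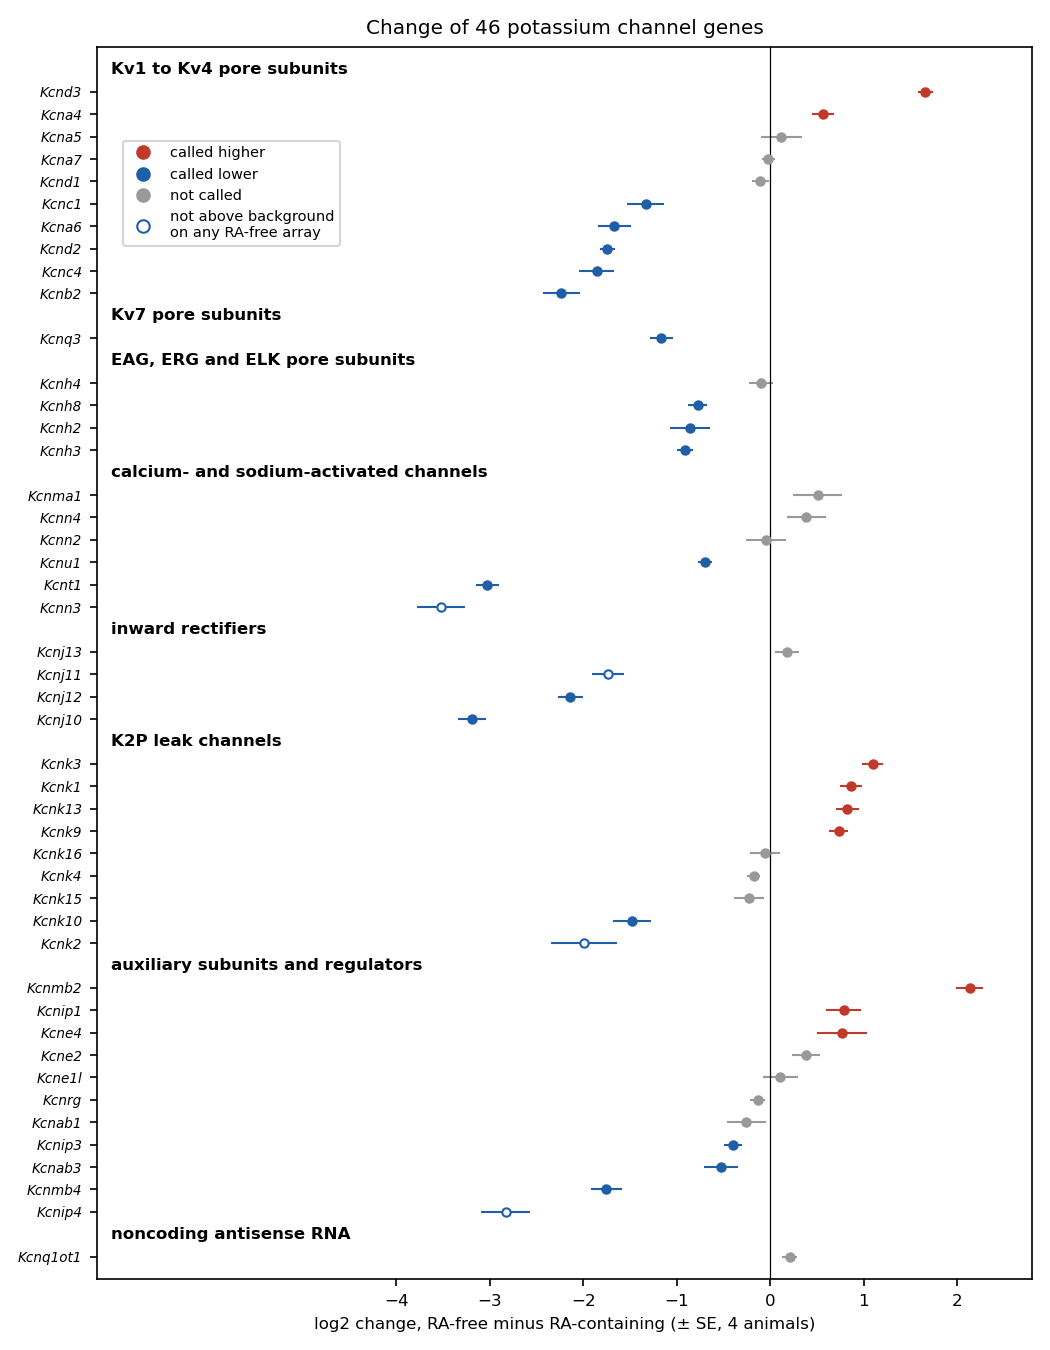
Log2 change (RA-free minus RA-containing, horizontal axis, bars ± SE, 4 animals) of 46 of the 49 tested potassium channel genes, grouped by role and ordered by change. Of those plotted, 21 were called lower and 9 higher. Open points mark the 4 genes with no RA-free array well above background. They are drawn at the fitted change, which has no exact size, and not at the bounds given in the text.

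Among the Kv1 to Kv4 pore subunits, 7 of 12 tested genes were lower (58.3%, all genes 28.2%) and 2 were higher (16.7%, all genes 36.1%). The other 3 did not pass, and the median change was −0.86. The Kv4 genes went apart. Kcnd3 had levels of 1.01, 0.93, 0.66 and 0.76 on RA-free arrays 1 to 4, against −0.82, −0.65, −0.97 and −0.85 on the RA-containing arrays. It rose by 1.66 (SE 0.08, adjusted p = 7.44e-05), a 3.16-fold difference. Every RA-free array lay above every RA-containing array. Kcnd2, which encodes the other main A-type subunit of neurons, had levels of 1.19, 0.73, 1.01 and 1.01 on RA-free arrays, against 2.96, 2.65, 2.67 and 2.62 on RA-containing arrays. Its change of −1.74 (SE 0.08, adjusted p = 7.31e-05) is a 3.34-fold decrease. Both sets of arrays were tight for this gene, and they stood well apart. Kcnd1, the remaining Kv4 gene, was not called.

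The promoters of Kcnd3 and Kcnd2 are shown because these paralogues moved in opposite directions. Each window runs from 250 bases before to 50 bases after the annotated start and comes from RefSeq, build GRCm38.p6. Kcnd3 lies at chr3:105451640-105451939 and Kcnd2 at chr6:21215096-21215395, both on the plus strand. Capitals mark AGGTCA or AGTTCA, the half-sites of RA receptor elements, or CACGTG, the E-box that MYC proteins bind, on either strand.
Kcnd3: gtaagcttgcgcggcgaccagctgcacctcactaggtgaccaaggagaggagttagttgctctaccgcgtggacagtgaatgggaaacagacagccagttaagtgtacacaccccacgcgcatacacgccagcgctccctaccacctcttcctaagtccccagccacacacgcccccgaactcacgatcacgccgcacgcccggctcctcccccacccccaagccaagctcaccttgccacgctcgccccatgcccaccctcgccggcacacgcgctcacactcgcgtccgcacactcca
Kcnd2: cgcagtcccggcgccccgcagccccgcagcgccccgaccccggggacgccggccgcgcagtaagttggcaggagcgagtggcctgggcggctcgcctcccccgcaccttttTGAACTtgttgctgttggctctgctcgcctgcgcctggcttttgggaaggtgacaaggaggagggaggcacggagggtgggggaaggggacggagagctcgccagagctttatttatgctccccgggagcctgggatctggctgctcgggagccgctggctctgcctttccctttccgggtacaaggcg
The Kcnd2 window held 1 AGTTCA half-site, written as its complement, and the Kcnd3 window held none of the 3 motifs. Guanine and cytosine made up 64% of the Kcnd3 and 68.7% of the Kcnd2 window.

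Of the Kv1 genes, Kcna4, an A-type subunit, was higher and Kcna6 lower. Kcna4 had levels of 3.57, 3.78, 3.69 and 3.64 on RA-free arrays, against 3.20, 2.83, 3.35 and 3.05 on RA-containing arrays, a rise of 0.56 (SE 0.12, adjusted p = 0.00849). The increase was small, and the arrays of the media did not overlap. Kcna6, a delayed rectifier, had levels of 1.89, 1.05, 0.51 and 0.99 on RA-free arrays, against 3.03, 2.70, 2.72 and 2.66 on RA-containing arrays, a change of −1.67 (SE 0.17, adjusted p = 0.000574). Animal 1 kept the highest level in both media.

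Kcnb2, a slow delayed rectifier of the neuronal cell body, was lower. It stood at −2.61, −3.13, −3.37 and −2.62 on RA-free arrays, against −0.67, −0.93, −0.39 and −0.80 on RA-containing arrays. Its change was −2.23 (SE 0.20, adjusted p = 0.000372), or −1.14 under normexp background correction with quantile normalization. The RA-free arrays all lay below the RA-containing ones. Kcnc4 and Kcnc1, of the Kv3 family of fast channels that allow high firing rates, were also lower. Kcnc4 stood at −3.28, −4.40, −3.27 and −3.28 on RA-free arrays, 3 of which were well above background, against −1.20, −1.97, −1.79 and −1.84 on RA-containing arrays. Its change was −1.86 (SE 0.19, adjusted p = 0.000529), or −0.81 under normexp with quantile normalization. Animal 2 was lowest in both media. Kcnc1 had a change of −1.33 (SE 0.19), with −1.36 by each of 2 other probes.

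**Figure D2:**
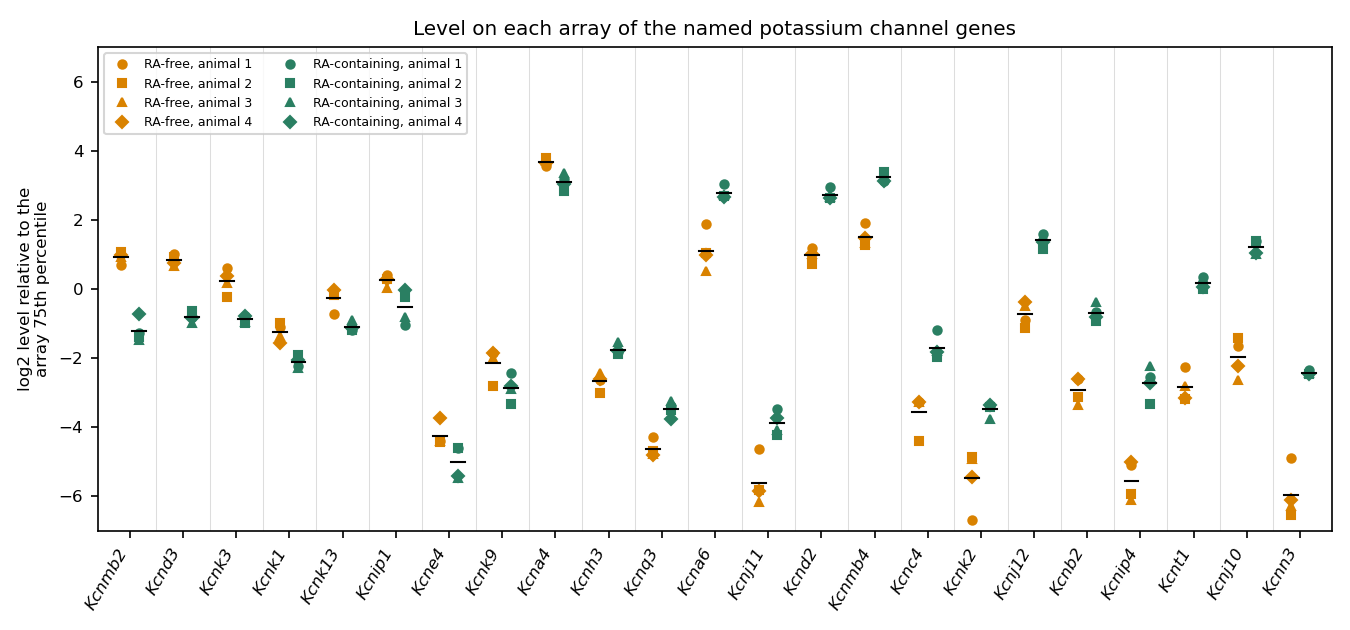
Level (log2 relative to the array's 75th percentile, vertical axis) of each named potassium channel gene on every array, RA-free left and RA-containing right, with a symbol for each animal and a bar at the mean. Genes are ordered by their fitted change from Kcnmb2 (2.13) at the left, the fitted values of Kcnj11, Kcnk2, Kcnip4 and Kcnn3 have no exact size because no RA-free array measured them, and heights of different genes are not comparable.

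Kcnq3, a Kv7 subunit of the M-channel, was lower. It stood at −4.28, −4.70, −4.77 and −4.80 on RA-free arrays, of which 1 was well above background, against −3.40, −3.51, −3.24 and −3.75 on RA-containing arrays. Its change was −1.16 (SE 0.12, adjusted p = 0.000567), or −0.29 under normexp with quantile normalization. The media did not overlap.

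Of the EAG, ERG and ELK genes, 3 of 4 tested were lower (75%, all genes 28.2%) and 1, Kcnh4, did not pass. Kcnh3, an ELK channel of forebrain neurons, stood at −2.64, −3.02, −2.42 and −2.59 on RA-free arrays, against −1.82, −1.88, −1.53 and −1.81 on RA-containing arrays. Its change was −0.91 (SE 0.09, adjusted p = 0.000454), or −0.41 under normexp with quantile normalization, and the media did not overlap. Kcnh2, the ERG channel that repolarizes the heart and also acts in neurons, had a change of −0.86 (SE 0.22, adjusted p = 0.0156). The call of Kcnh2 was lost without replicate 2 (adjusted p = 0.0555). Kcnh8 had a change of −0.78 (SE 0.10), which did not pass under spike-in scaling (adjusted p = 0.0533). Under normexp with quantile normalization Kcnh2 had −0.51 and Kcnh8 −0.43.

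The calcium- and sodium-activated channels had 3 of 6 tested genes lower (50%, all genes 28.2%), none higher and 3 not called. The lower ones include Kcnn3, which had to be lower by the filter. Kcnn3, a small-conductance calcium-activated channel that carries the after-hyperpolarization, stood at −4.88, −6.54, −6.29 and −6.09 on RA-free arrays, against −2.35, −2.47, −2.42 and −2.47 on RA-containing arrays. No RA-free array showed it well above background, and it was at least 3.63-fold lower (means −5.95 and −2.43). Bounds of this kind set each dim array at the lowest signal that passed on it as well above background, or at its own value if higher. Some spots failed above that signal, so the bounds are not strict limits, and they apply to the main processing alone. Under normexp with quantile normalization the change of Kcnn3, −0.82, was smaller than its bound. Kcnt1, a sodium-activated channel, stood at −2.24, −3.20, −2.80 and −3.14 on RA-free arrays, against 0.33, 0.00, 0.32 and 0.06 on RA-containing arrays. It was 8.13-fold lower (change −3.02, SE 0.13, adjusted p = 6.15e-05), or −1.86 under normexp with quantile normalization. For Kcnt1 the media were far apart in every animal. Kcnu1, known as a sperm channel in mouse, had a change of −0.70 (SE 0.08), which did not pass under spike-in scaling (adjusted p = 0.0970).

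Kcnma1, the pore of the large-conductance calcium-activated (BK) channel, was not called. Its levels were 2.19, 1.97, 0.76 and 1.68 on RA-free arrays, against 1.34, 0.97, 1.27 and 0.99 on RA-containing arrays. It was higher without RA in 3 of 4 animals (change 0.51, SE 0.26, adjusted p = 0.136), and the RA-free array of animal 3 was the exception. Without replicate 3 the change was 0.85 and passed (adjusted p = 0.00241), as it did under spike-in scaling (0.0366) and with the mean of its probes (0.0317). Another of its 3 probes had a change of 1.22 that passed (adjusted p = 0.00572 over all probes) and the third one of 0.47 that did not. Kcnn4 had a change of 0.39 (SE 0.21, adjusted p = 0.147), and 0.60 without replicate 1 (adjusted p = 0.0335).

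The inward rectifiers had 3 of 4 tested genes lower (75%, all genes 28.2%) and none higher, while 11 of the 15 on the array did not pass the filter. The lower ones include Kcnj11, which had to be lower by the filter. Kcnj10, which clears potassium in glia and in satellite cells of ganglia, stood at −1.65, −1.42, −2.63 and −2.21 on RA-free arrays, against 1.40, 1.39, 1.02 and 1.05 on RA-containing arrays. It was 9.12-fold lower (change −3.19, SE 0.15, adjusted p = 7.11e-05). The RA-free arrays all lay far below the RA-containing ones. Kcnj12, a strong inward rectifier, stood at −0.90, −1.14, −0.49 and −0.37 on RA-free arrays, against 1.59, 1.16, 1.54 and 1.37 on RA-containing arrays, a change of −2.14 (SE 0.14, adjusted p = 0.000138). Kcnj11, the pore of the ATP-sensitive channel, stood at −4.63, −5.80, −6.16 and −5.83 on RA-free arrays, against −3.47, −4.22, −4.07 and −3.74 on RA-containing arrays. No RA-free array showed it well above background, and it was at least 1.33-fold lower (means −5.61 and −3.87). Under normexp with quantile normalization its change was −0.21, smaller than this bound.

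Markers of Schwann cells and satellite glia are given beside Kcnj10. Of 10 listed, 7 were tested, 2 were called lower (28.6%, near the 28.2% of all tested genes) and none higher. The summed signal of the list, in multiples of the 75th percentile, was 12.6 to 16.1 on RA-free and 21.6 to 22.9 on RA-containing arrays. The brightest tested probe, that of Mbp, weighs most in this sum (mean levels 3.30 in RA-free and 3.89 in RA-containing cultures). Fabp7 and Mbp had changes of −0.99 and −0.59, and that of Sox10 (−0.12) did not pass, although it passed with the 75th percentile of detected probes (0.0499). Mbp did not pass under spike-in scaling (adjusted p = 0.196), where Sox10 turned to 0.037. Erbb3 stayed at background on every array. The part of these cells in the change of Kcnj10 was not tested.

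Genes just inside and outside the filter were near background. The 5 tested members on exactly 4 arrays were Kcne4, Kcnip4, Kcnj11, Kcnk2 and Kcnn3. The 3 just outside were Kcnj2, with means of −4.18 in RA-free and −4.18 in RA-containing cultures, Kcnj4, with −3.34 and −4.70, and Kcnj9, with −3.39 and −5.41. Kcnj4 and Kcnj9 were each well above background on 3 RA-free arrays and on no RA-containing array.

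Of the K2P leak channels, 4 of 9 tested genes were higher (44.4%, all genes 36.1%), 2 were lower (22.2%, all genes 28.2%) and 3 did not pass. The lower ones include Kcnk2, which had to be lower by the filter. Kcnk3 and Kcnk9, TASK genes whose acid-sensitive products carry background current, were higher, while Kcnk15, also a TASK gene, had a change of −0.22 and did not pass (adjusted p = 0.270). Kcnk3 stood at 0.60, −0.23, 0.17 and 0.37 on RA-free arrays, against −0.77, −0.99, −0.94 and −0.78 on RA-containing arrays, a rise of 1.09 (SE 0.11, adjusted p = 0.000564). Kcnk9 stood at −1.85, −2.81, −2.0 and −1.85 on RA-free arrays, against −2.42, −3.33, −2.91 and −2.79 on RA-containing arrays. It was higher in 4 of 4 animals (change 0.73, SE 0.10, adjusted p = 0.00168), or 0.33 under normexp with quantile normalization. Animal 2 was lowest in both media, so the arrays overlapped although each pair differed the same way.

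Kcnk1 and Kcnk13 were also higher. Kcnk1, the TWIK channel, stood at −1.10, −0.99, −1.35 and −1.57 on RA-free arrays, against −2.22, −1.92, −2.27 and −2.04 on RA-containing arrays, a rise of 0.86 (SE 0.12, adjusted p = 0.00158), or 0.44 under normexp with quantile normalization. Kcnk13, the THIK channel, stood at −0.73, −0.17, −0.13 and −0.03 on RA-free arrays, against −1.19, −1.17, −0.89 and −1.13 on RA-containing arrays, a rise of 0.83 (SE 0.12, adjusted p = 0.00209). For both, every RA-free array lay above every RA-containing array. The lower ones were TREK genes, which encode stretch- and lipid-sensitive channels. Kcnk10 stood at 1.30, 0.33, −0.00 and 0.20 on RA-free arrays, against 2.05, 1.81, 1.94 and 1.95 on RA-containing arrays, a change of −1.48 (SE 0.20, adjusted p = 0.00152). Kcnk2 stood at −6.67, −4.87, −4.91 and −5.44 on RA-free arrays, against −3.39, −3.43, −3.76 and −3.36 on RA-containing arrays. No RA-free array showed it well above background, and it was at least 1.75-fold lower (means −5.47 and −3.48). Under normexp with quantile normalization its change was −0.32, smaller than this bound. Kcnk4, a related stretch-sensitive channel, had −0.18 and did not pass (adjusted p = 0.0703; 0.0137 with the 75th percentile of detected probes).

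Auxiliary subunits moved both ways, with 3 of 11 tested genes higher (27.3%, all genes 36.1%), 4 lower (36.4%, all genes 28.2%) and 4 not called. The lower ones include Kcnip4, which had to be lower by the filter. The BK channel subunits went in opposite directions. Kcnmb2, which gives BK channels fast inactivation, stood at 0.69, 1.07, 0.92 and 0.97 on RA-free arrays, against −1.27, −1.38, −1.49 and −0.74 on RA-containing arrays, a 4.38-fold rise (change 2.13, SE 0.15, adjusted p = 0.000165). A second probe gave 2.23. Kcnmb4, the brain-enriched BK subunit, stood at 1.92, 1.27, 1.34 and 1.48 on RA-free arrays, against 3.13, 3.39, 3.37 and 3.13 on RA-containing arrays, a change of −1.75 (SE 0.16, adjusted p = 0.000419), and −1.74 by a second probe. The arrays of the media were fully separated for both genes.

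The promoters of Kcnmb2 and Kcnmb4 are shown for the same reason as the Kv4 pair, at chr3:31902453-31902752 on the plus strand and chr10:116473474-116473773 on the minus strand (RefSeq, GRCm38.p6), with the same motifs in capitals.
Kcnmb2: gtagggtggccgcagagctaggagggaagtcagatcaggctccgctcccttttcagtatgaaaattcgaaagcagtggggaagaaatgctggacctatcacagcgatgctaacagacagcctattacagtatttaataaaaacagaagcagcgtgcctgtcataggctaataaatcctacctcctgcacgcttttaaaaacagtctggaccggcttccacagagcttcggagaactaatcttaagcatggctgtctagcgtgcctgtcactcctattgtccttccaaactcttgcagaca
Kcnmb4: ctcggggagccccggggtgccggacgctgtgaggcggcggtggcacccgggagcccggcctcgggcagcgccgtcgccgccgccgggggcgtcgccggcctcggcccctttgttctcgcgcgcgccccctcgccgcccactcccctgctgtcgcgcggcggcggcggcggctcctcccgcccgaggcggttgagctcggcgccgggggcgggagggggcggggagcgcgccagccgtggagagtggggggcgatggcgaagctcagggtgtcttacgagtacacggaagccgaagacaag
Neither window held any of the 3 motifs. They differ in base composition, with 47.7% guanine and cytosine in the Kcnmb2 window and 79% in the Kcnmb4 window.

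The KChIP genes, whose calcium-binding products bring Kv4 channels to the surface and slow their inactivation, also went apart. Kcnip1 stood at 0.41, 0.30, 0.02 and 0.30 on RA-free arrays, against −1.04, −0.24, −0.80 and −0.03 on RA-containing arrays, a rise of 0.79 (SE 0.19, adjusted p = 0.0132) that did not pass without replicate 3 (adjusted p = 0.0503). Kcnip4 stood at −5.10, −5.93, −6.10 and −5.02 on RA-free arrays, against −2.54, −3.33, −2.23 and −2.73 on RA-containing arrays. No RA-free array showed it well above background, and it was at least 2.98-fold lower (means −5.54 and −2.71). Under normexp with quantile normalization its change was −0.60, smaller than this bound. Kcnip3, a KChIP that also acts as a transcriptional repressor, had a change of −0.40 (SE 0.10, adjusted p = 0.0135). Its call was lost under normexp with quantile normalization (adjusted p = 0.0794), under spike-in scaling (0.50) and without replicate 2 (0.0585).

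Kcne4, which inhibits some Kv channels, and Kcnab3, a Kv beta subunit, passed narrowly. Kcne4 stood at −4.40, −4.43, −4.41 and −3.75 on RA-free arrays, against −4.60, −4.60, −5.46 and −5.41 on RA-containing arrays, with 2 arrays of each medium well above background (change 0.77, SE 0.27, adjusted p = 0.0492). Kcnab3 had a change of −0.52 (SE 0.18, adjusted p = 0.0482) and was lower in 3 of 4 animals. Each call was lost under 8 alternatives. For Kcne4 these included leaving out replicate 3 (adjusted p = 0.156) or replicate 4 (0.113). For Kcnab3 they included leaving out replicate 1 (0.136), 2 (0.147) or 4 (0.153). Under normexp with quantile normalization the changes were 0.13 for Kcne4 and −0.08 for Kcnab3. Kcne2 had a change of 0.38 and did not pass (adjusted p = 0.0689), except without replicate 4 (0.0291) and when the processed signals were quantile normalized (0.0498).

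Kcnq1ot1, an imprinted antisense RNA of the Kcnq1 locus whose symbol also begins with Kcn, does not encode a channel. It had a change of 0.21 and did not pass (adjusted p = 0.0563), but passed over genes well above background on all arrays (0.0474), with the mean of its probes (0.0447) and by limma-trend (0.0336). Of the 16 members not called, 11 had changes between −0.26 and 0.18, the lowest adjusted p among them being 0.189. No electrically silent Kv subunit (Kcnf, Kcng, Kcns or Kcnv) passed the filter.

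Unequal change within a family was described for genes measured on all 8 arrays. A constant shift of an array cancels between 2 of its genes, but background correction and quantile normalization need not. For 3 pairs picked after their opposite directions were seen, and so given with no test, the difference between the members' changes was computed within each animal. Kcnd3 against Kcnd2 gave 3.60, 3.49, 3.29 and 3.22 in animals 1 to 4 (mean 3.40 ± 0.18 SD, n = 4). Kcnmb2 against Kcnmb4 gave a mean of 3.88 ± 0.72, and Kcnk3 against Kcnk10 gave 2.57 ± 0.47. Under normexp with quantile normalization the mean gaps were 2.99, 3.33 and 2.23.

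**Figure D3:**
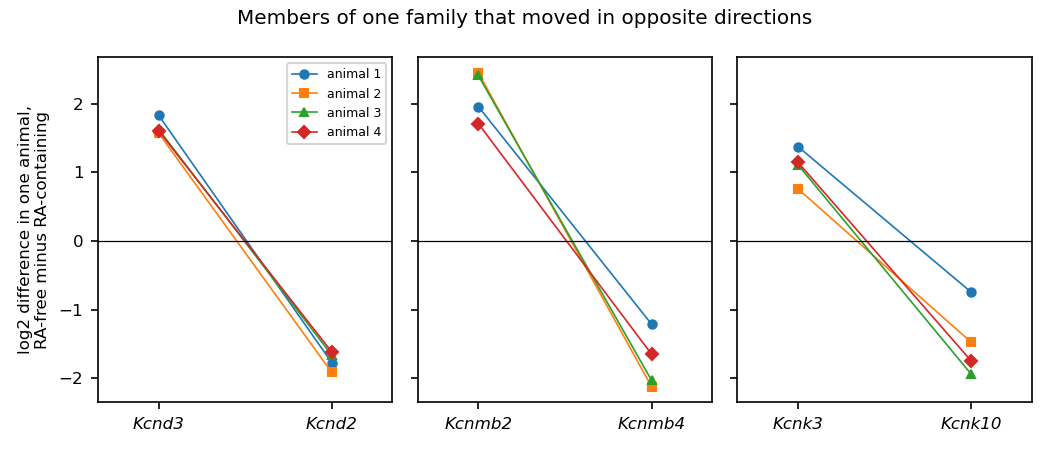
Log2 difference between the media within each animal (RA-free minus RA-containing, vertical axis) for 3 pairs of related genes, with a line joining the 2 genes of an animal. In each pair, chosen for opposite directions, the first gene lies above 0 and the second below 0 in all 4 animals, and the Kcnd3 and Kcnd2 lines are the tightest, with a mean gap of 3.40.

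Promoter windows were found for 35 of the 49 tested members (47 windows). Direct repeats of the RA receptor half-site with a spacing of 5 bases (DR5) or 2 bases (DR2) occurred in none of these members, and in 0.115% and 0.311% of all genes with a window (0.0974% and 0.268% of 32851 windows). The half-site AGGTCA was found in 2 of the 35 members, Kcnip4 and Kcnk10, and in 18.1% of all genes with a window (16.3% of windows). The half-site AGTTCA was found in 5 members and in 15.7% of genes (14% of windows). The E-box CACGTG was found in 4 members, of which Kcne4 was called higher and none was called lower, and in 8.09% of genes (7.15% of windows). The repeats were built from the half-sites AGGTCA or AGTTCA, or from GGGTCA or else GGTTCA, both strands were searched, and a repeat holds half-sites that were also counted alone. The median content of guanine and cytosine was 52.7% in 9 windows of genes called higher, 63.7% in 21 windows of genes called lower, 53.3% in 17 windows of genes not called and 52.7% in all windows. These are descriptions of the windows alone.

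Partners of potassium channels and other ion channels were measured in the same fit. Of 26 tested partner genes, 17 were called lower (65.4%, against 28.2% of all genes) and 4 higher (15.4%, against 36.1%), with a median change of −0.53. The number higher was 2 under spike-in scaling, with the mean of all probes and without replicate 2. Those settings called 3281, 4864 and 4087 of all 13539 genes higher. When all 8 arrays had to be well above background, 13 partner genes were lower and 4 higher (3306 and 4859 of all 12161 genes). Dpp10, an auxiliary subunit that speeds Kv4 gating, passed the filter through RA-containing arrays alone and so had to be lower. It was at background on every RA-free array and at least 14.3-fold lower (means −6.24 and −0.45). Under normexp with quantile normalization its change was −2.12, smaller than this bound. Lrrc55, a BK gamma subunit, and Lgi1, a secreted protein linked to Kv1 channels, had changes of −3.90 (SE 0.51) and −2.34 (SE 0.34). They were well above background on 1 and 2 RA-free arrays, and had −1.11 and −1.02 under normexp with quantile normalization. A further pair of partners bears on members described above and was picked after its values were seen. Dpp6, the relative of Dpp10, was 3.00-fold lower (change −1.58, SE 0.22), and Abcc8, the sulfonylurea receptor that assembles with Kcnj11, was 3.20-fold lower (change −1.68, SE 0.15).

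Of 25 tested sodium and calcium channel genes, 15 were lower (60%, against 28.2% of all genes) and 3 higher (12%, against 36.1%), with a median change of −0.99. The called T-type calcium channel genes, Cacna1i and Cacna1h, went apart. Cacna1i had a change of −3.43 (SE 0.26), or −2.11 under normexp with quantile normalization and −1.77 as the mean of its probes. Cacna1h rose by 1.81 (SE 0.17), or 1.15 under normexp with quantile normalization. Another tested T-type gene, well above background on 1 RA-free array, had −0.99 and did not pass (adjusted p = 0.0767). Cacna2d2, an accessory subunit, had a change of −1.98 (SE 0.10). Of the 2 tested HCN genes, whose channels carry the hyperpolarization-activated current, 1, Hcn3, was lower and none was higher; its change of −0.47 lost the call under 6 alternatives, among them leaving out replicate 2 (adjusted p = 0.0917), 3 (0.0564) or 4 (0.0537). Of 17 tested sodium-potassium pump subunits and potassium transporters, 10 were lower (58.8%, against 28.2% of all genes) and 3 higher (17.6%, against 36.1%). Spike-in scaling called 0 of them higher (3281 of all 13539 genes), and the 75th percentile of detected probes called 1 (3965 of all 13539 genes). Slc24a3, a potassium-dependent sodium-calcium exchanger, had a change of −2.43 (SE 0.25), or −1.23 under normexp with quantile normalization. Atp1b2 and Fxyd2, subunits of the sodium-potassium pump, had changes of −1.95 (SE 0.20) and −1.60 (SE 0.12).

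**Figure D4:**
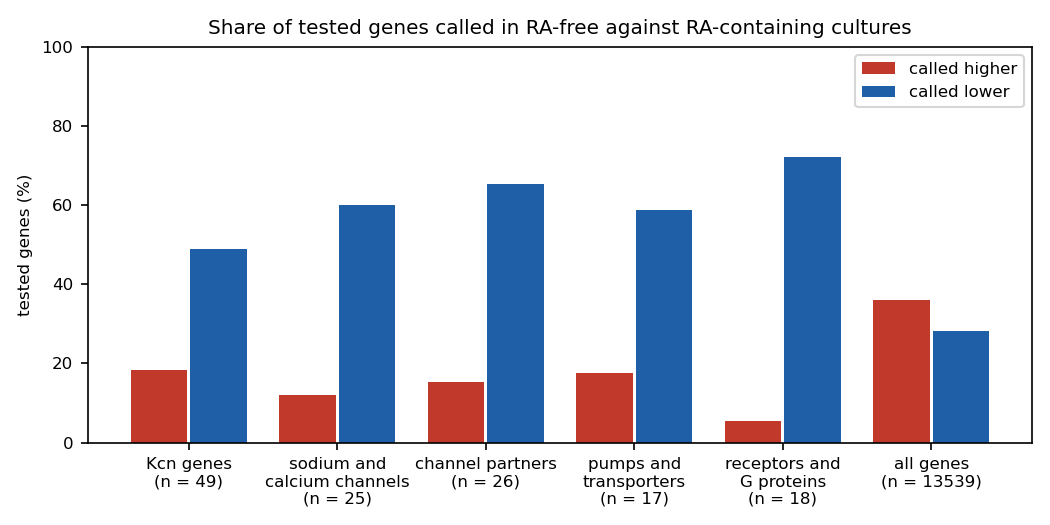
Share of tested genes (%, vertical axis) called higher and called lower in RA-free against RA-containing cultures, for Kcn genes, 4 lists of related genes and all tested genes, with the number tested under each. Called lower were 49% of Kcn genes and 28.2% of all genes, and called higher 18.4% and 36.1%.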

How the data were processed

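Total RNA of 8 sphere cultures was labelled with Cy3. Per the file headers, the authors scanned arrays of design 028005 and extracted spots with Agilent Feature Extraction 11.5.1.1 (annotation build mm9), which gives a background-subtracted processed intensity not scaled between arrays. The flags for spots well above background are the deposited ones. The authors' deposited table of log2 values matched the scanner values (lowest r = 0.99994) after centring each probe on its mean; its exact scaling stays unknown, and its column medians were −0.07, 0.01, 0.17 and 0.20 for RA-free and −0.23, −0.22, 0.02 and −0.01 for RA-containing arrays 1 to 4.

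Control spots and outlier spots were left out (64 of 55681 probes were lost). The log2 intensities were scaled by subtracting the 75th percentile per array, then averaged over the spots of each probe. Accessions were matched to a RefSeq table of GRCm38.p6, which named 27235 probes; 28446 matched none. Genes were tested if the brightest probe was well above background on at least 4 of 8 arrays. RA-free minus RA-containing was fitted in limma 3.58.1 (R 4.3.3) with the animal as a block and Benjamini-Hochberg correction across the tested genes; p-values are two-sided, and genes with adjusted p under 0.05 are called. The fit was tested on simulated data. The pairing comes from the series' description; deviations of paired arrays correlated at 0.516, 0.304, 0.192 and 0.332, and each matched its own partner best.

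Full values are given for up to 10 members called higher and 12 called lower with the largest changes, plus the called member with the largest change of any role group not yet named, and up to 3 called genes of each other list. The members and lists were chosen with earlier results of these data known. Alternatives changed the background correction, scaling, filter, probe choice, block, trend and animals. The normexp alternative (offset 50) used median spot signals, since the files hold no mean signal. Some genes that enter the counts are not reported here by name.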

Additional observations from a re-analysis of the deposited data

Results flagged for a closer look

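In 5 of 98 groups of 4 arrays (5.1%, where chance flags about 1 in 20), 1 array stood apart from the other 3. Kcne4 in RA-free cultures was −3.75 in animal 4, against −4.43 to −4.40 in the other animals. Kcnk9 in RA-free cultures was −2.81 in animal 2, against −2.0 to −1.85. Kcnc4 in RA-free cultures was −4.40 in animal 2, against −3.28 to −3.27. Kcna6 in RA-containing cultures was 3.03 in animal 1, against 2.66 to 2.72. Kcnd2 in RA-containing cultures was 2.96 in animal 1, against 2.62 to 2.67.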

How the results depend on the processing

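Of the 33 called Kcn genes, 24 kept direction and call under every alternative run that tested them, and 9 (among them Kcnip1, Kcne4, Kcnip3, Kcnab3, Kcnu1, Kcnh8 and Kcnh2) lost the call under at least 1; 1 called gene changed direction with the mean of all probes of a gene. The number of Kcn genes called higher was 17 of 97 when dim probes were kept, so that genes near background entered. Of all 20641 genes in that setting, 4851 were called higher. The Kcn median was 0.11 with no filter, −0.089 under normexp with quantile normalization, −0.37 with the 75th percentile of detected probes and −0.10 under spike-in scaling. The last pair of scalings moved every gene alike (the median of all genes by −0.11 and 0.16), so neither can change the gap between the Kcn and all-gene medians. That gap was −0.33 as reported, −0.24 with quantile normalization of processed signals, −0.089 under normexp with quantile normalization and −0.064 with no filter. Spike-in scaling called 5212 genes in place of 8705. The glial marker Sox10, not called, turned to 0.037 under it. Without the replicate block, that is without the animal pairing, 9 Kcn genes were higher and 24 lower, as with it, and 8022 genes were called in all; Hcn3 lost its call (adjusted p = 0.0612). Leaving out 1 animal gave 8 to 10 Kcn genes higher and 21 to 23 lower. The cause of these differences was not tested. Sizes of genes near background are limited by signal over background.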

Other observations

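Receptors and G proteins that act on potassium channels were also measured: 13 of 18 tested genes were called lower without RA (72.2%, against 28.2% of all genes), 1 was called higher (5.56%, against 36.1%) and the median change was −0.62. Under spike-in scaling 7 were called lower (1931 of all 13539 genes). When every array had to be well above background, 9 were called lower (3306 of all 12161 genes). Of the 13 lower genes, 1 passed the filter through RA-containing arrays alone and so had to be lower. Adra2a, an alpha2 adrenergic receptor, had levels of −2.82 ± 0.79 in RA-free and 3.24 ± 0.16 in RA-containing cultures (SD, n = 4 each; change −6.06, SE 0.30). Adra2c, a related receptor, was the gene called higher, at 2.24 ± 0.22 in RA-free and −1.37 ± 0.25 in RA-containing cultures (change 3.61, SE 0.13). Chrm2, a muscarinic receptor, was well above background on 1 RA-free array and had a change of −5.01 (SE 0.52), or −2.14 under normexp with quantile normalization.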
